A study of Mus musculus with 56 samples.

Results

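Kidneys collected at the same clock time, labelled 24 h apart, under nighttime-restricted feeding (NRF) were compared gene by gene, at ZT0 and at ZT24 (ZT, zeitgeber time, counts the hours from lights on). All libraries of these collections were taken, 4 mice at ZT0 and 4 other mice at ZT24, which made 8 of the 56 libraries of the series. All were C57BL/6J females of 9 weeks, housed in groups under 12 h of light and 12 h of dark, which had been given food only at night for 7 days. The other libraries came from NRF mice at ZT4 to ZT20 and from daytime-restricted feeding (DRF) mice at all 7 times, and the DRF mice of ZT0 and ZT24 gave a second comparison of the same kind. The labels give neither the collection day nor the cage, so group, day, cage and batch cannot be told apart, and whole kidney RNA does not separate fewer cells of a type from less RNA per cell.

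Interferons are secreted signals that cells make on sensing foreign or misplaced nucleic acid. They act through JAK kinases and a factor complex that includes STAT2 and IRF9 and binds an element upstream of a large set of antiviral genes to raise their transcripts. T cells and natural killer (NK) cells are lymphocytes that patrol tissues, the kidney included, and carry their own receptor and cytotoxic genes. The circadian clock is a loop in which BMAL1 (Arntl) and CLOCK drive Per, Cry, Rev-erb and Dbp family genes, so that their levels return to the same point every 24 h.

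Between the collections, 79 of 12191 genes tested differed at an adjusted p under 0.05 in limma, which was 0.648% of the genes. Of these, 46 genes were lower at ZT24 (0.377% of the genes tested) and 33 were higher (0.271%). Groups did not overlap in 45 of the 46 lower genes and in 32 of the 33 higher genes. Among all genes tested, the groups did not overlap with ZT24 lower in 4.58% and with ZT24 higher in 3.03%. The called genes were chosen by the difference between these same groups, which favours separation. These counts are therefore a description, and nothing is read from them against the shares of all genes. Leaving out each of the 8 libraries in turn, 23 of the 46 and 21 of the 33 were called every time. The lower genes were mostly interferon response genes and the higher genes included 7 of 10 tested markers of T and NK cells. No clock gene was called. The median log2 fold change over all genes tested was -0.03, and 988 genes had an unadjusted p under 0.05. Fold changes are on the scale of log2(TPM + 1), where TPM is transcript abundance per gene length, scaled to the same sum in every library and rebuilt from the deposited values, and are ZT24 minus ZT0.

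**Figure D1:**
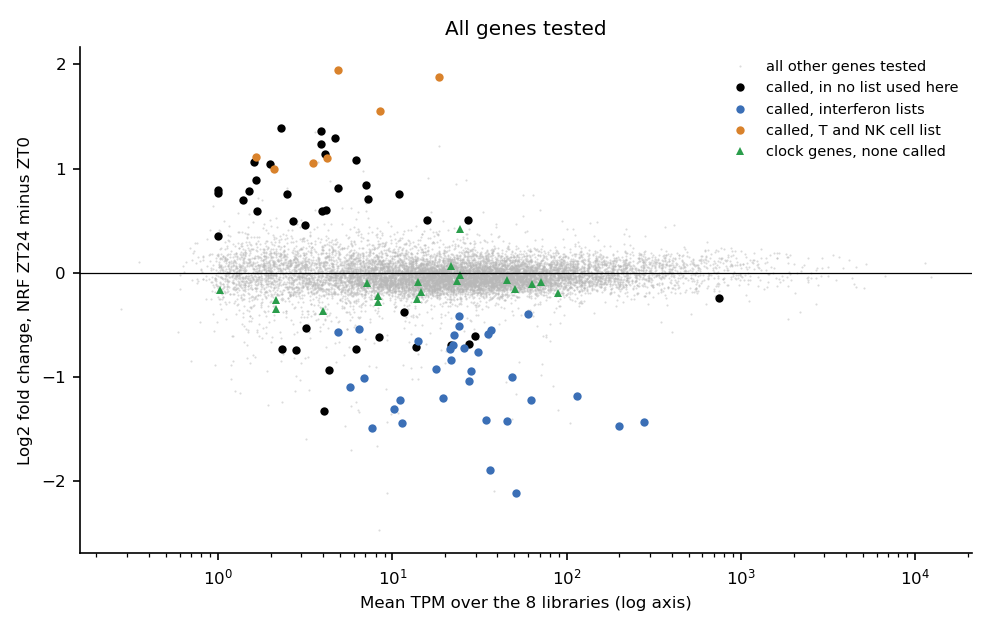
Log2 fold change of every gene tested, NRF ZT24 minus NRF ZT0, against its mean TPM over the 8 libraries (log axis). Called genes of the interferon lists (blue) lie below 0, called genes of the T and NK cell list (orange) lie above 0, and the 19 clock genes (green triangles) lie near 0.

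The 8 libraries carried kidney markers and were of like depth, at 24.5 to 25.7 M rebuilt reads. No difference in depth between the groups was detected (2-sided exact permutation test over 70 arrangements, p = 0.771, where the smallest possible p is 0.0286). The labels do not say that the mice came from separate cages, so p-values measure the spread between mice. For limma this spread within groups was pooled over all 14 groups of the 56 libraries, while the permutation p rests on the 8 mice alone. The proximal tubule phosphate transporter Slc34a1 was at 3075 to 4138 TPM and the thick ascending limb gene Umod at 4288 to 7023 TPM. ZT0 replicate 4 had the most thick ascending limb transcript, with Slc12a1, its salt cotransporter, at 1862 TPM against 776 to 1149 TPM in the other 7 libraries. Adipose transcripts were carried by single libraries of both groups: Adipoq, the fat cell hormone adiponectin, was at 68.4 TPM in ZT0 replicate 1, 4.03 TPM in ZT0 replicate 3 and 38.5 TPM in ZT24 replicate 2, and at 0 to 0.386 TPM in the others. Without ZT0 replicate 1 and ZT24 replicate 2, an alternative chosen after seeing the data, 53 genes were called, 28 higher and 25 lower.

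The element that the complex with STAT2 and IRF9 binds holds a pair of GAAA blocks, and GAAANNGAAA was searched on both strands (TTTCNNTTTC on the other) in the 250 bases before each RefSeq start (GRCm38.p6). Of the 34 lower genes with a window in that table, 12 held a match (35.3%), beside 3.46% of all 27025 genes of the table, 1 of 21 higher genes (4.76%) and 0 of 16 clock genes. Among the 9741 genes tested that had a window the share was 3.12%. Of the lower genes on the interferon response list, 5 of 22 held a match (22.7%), so most of the 12 lay outside that list. A match is a description of the letters, and Ifi206, Ifi208 and Ifi213, neighbours of 1 family, share most of theirs. The windows of 5 lower genes with a match are shown, with matches in capitals. They lie at chr19:34640639-34640870 (plus strand, Ifit1), chr4:156200819-156201068 (minus strand, Isg15), chr8:71537473-71537722 (minus strand, Bst2), chr1:173491319-173491568 (minus strand, Ifi206) and chr1:173741810-173742059 (minus strand, Ifi207), each ending at the outermost start of the gene in RefSeq or GENCODE.
Ifit1: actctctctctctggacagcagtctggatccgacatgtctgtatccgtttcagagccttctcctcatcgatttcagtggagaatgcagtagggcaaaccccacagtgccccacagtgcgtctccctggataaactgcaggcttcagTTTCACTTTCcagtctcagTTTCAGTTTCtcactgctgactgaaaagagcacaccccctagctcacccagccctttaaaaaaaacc
Isg15: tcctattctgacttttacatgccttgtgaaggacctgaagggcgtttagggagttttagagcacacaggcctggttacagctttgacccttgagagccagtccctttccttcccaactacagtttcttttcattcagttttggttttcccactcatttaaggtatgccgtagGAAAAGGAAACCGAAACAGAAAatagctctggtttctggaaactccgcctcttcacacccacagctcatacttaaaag
Bst2: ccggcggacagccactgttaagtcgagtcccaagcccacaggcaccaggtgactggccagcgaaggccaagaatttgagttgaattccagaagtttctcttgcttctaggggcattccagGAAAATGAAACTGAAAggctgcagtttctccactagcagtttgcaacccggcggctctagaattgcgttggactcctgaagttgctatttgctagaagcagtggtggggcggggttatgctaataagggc
Ifi206: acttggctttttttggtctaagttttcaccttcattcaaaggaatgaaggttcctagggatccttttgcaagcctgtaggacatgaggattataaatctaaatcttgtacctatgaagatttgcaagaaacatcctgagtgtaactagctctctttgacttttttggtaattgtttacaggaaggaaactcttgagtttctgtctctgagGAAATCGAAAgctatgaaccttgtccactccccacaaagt
Ifi207: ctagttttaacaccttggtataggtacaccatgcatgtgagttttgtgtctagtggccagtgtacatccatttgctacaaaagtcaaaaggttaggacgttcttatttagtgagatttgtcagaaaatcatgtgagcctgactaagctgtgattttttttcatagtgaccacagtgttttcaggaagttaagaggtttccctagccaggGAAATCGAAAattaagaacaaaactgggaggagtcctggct
Isg15 held 3 overlapping matches, the nearest starting 66 bases before the start. Ifit1 and Bst2 held 2 each, and Ifi206 and Ifi207 held 1 each, 40 and 41 bases before theirs. Irf7, which fell most, held none in its window.

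Of the 57 listed interferon response genes, 41 were tested, and 31 of them were lower at ZT24, 0 were higher and 10 were not called. Their median log2 fold change was -0.84, beside -0.03 for all genes tested. In 37 of the 41 the 4 values of the groups did not overlap, where 7.6% of all genes tested did not in either direction. Over all genes tested, 0.377% were called lower. The list was chosen with earlier results of these data known. Its counts are therefore a description, and nothing is read from them against the shares of all genes. The largest fall was that of Irf7, the factor that amplifies interferon production. It was at 85.6, 74.8, 96.1 and 75.5 TPM in the ZT0 mice and at 16.9, 19.8, 15.1 and 22.4 TPM in the ZT24 mice. Every ZT0 mouse stood above every ZT24 mouse, by 4.47-fold on average, and the log2 fold change was -2.11 ± 0.28 (SE, adjusted p = 9.92e-06). Irf7 lies on chromosome 7, 141262706 to 141266481 (GRCm38, minus strand).

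Ifit1, which binds viral RNA that lacks a host cap, was at 59.1, 46.8, 72.6 and 52.4 TPM at ZT0 and at 13.4, 15.6, 13.7 and 16.1 TPM at ZT24. Its groups did not overlap, and its log2 fold change was -1.89 ± 0.28 (SE, adjusted p = 3.61e-05). Isg15, a ubiquitin-like protein attached to other proteins in this response, was at 63.0, 56.4, 96.9 and 51.8 TPM at ZT0 and at 25.6, 29.6, 19.2 and 21.3 TPM at ZT24. The lowest ZT0 mouse was above the highest ZT24 mouse, but the call depended on 1 library: without ZT0 replicate 3, which had the most Isg15, its log2 fold change was -1.23 and its adjusted p 0.0549. Usp18, which removes ISG15 again and damps receptor signalling, fell by 1.22 ± 0.20 on the log2 scale (adjusted p = 0.000128).

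The factors that carry the signal fell as well. Irf9 was at 39.9, 32.5, 45.1 and 32.8 TPM at ZT0 and at 16.2, 19.4, 16.5 and 18.7 TPM at ZT24, with no overlap, and its log2 fold change was -1.03 ± 0.14 (SE, adjusted p = 1.25e-05). Stat2 fell by 0.94 (adjusted p = 0.000607). The receptors and kinases upstream were not called: 0 of 10 tested members of the list of receptors and ligands passed, beside 0.648% of all genes tested. Their median was 0.02. Ifnar2, a chain of the type I receptor, was at 46.4 to 48.5 TPM at ZT0 and 46.6 to 50.1 TPM at ZT24, and the interferon gene Ifng was at 0 to 0.429 TPM at ZT0 and 0.306 to 0.924 TPM at ZT24.

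Sensors of nucleic acid and antiviral effectors were among the other members called. Zbp1, a sensor that can trigger cell death, was at 14.2, 8.82, 16.1 and 7.89 TPM at ZT0 and at 4.12, 4, 2.61 and 2.96 TPM at ZT24. Its groups did not overlap, and it fell by 1.49 on the log2 scale (adjusted p = 0.000612). The RNA sensors Ddx58 (RIG-I), Ifih1 (MDA5) and Dhx58 (LGP2) fell by 0.76, 0.66 and 1.09. Oas2, which makes the messenger that activates RNase L, fell by 1.30, and its relatives Oasl1 and Oasl2 fell by 1.44 and 1.20. Eif2ak2 (PKR), which stops translation on double-stranded RNA, fell by 0.73, Adar, which edits such RNA, by 0.59, and Bst2 (tetherin), which holds virus particles on the cell surface, by 1.18.

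Lgals3bp and Ifi27 were among the more abundant genes called. Lgals3bp, a secreted galectin-binding glycoprotein, was at 438, 382, 447 and 344 TPM at ZT0 and at 133, 143, 126 and 198 TPM at ZT24, and Ifi27 was at 308, 255, 325 and 288 TPM at ZT0 and at 99.5, 114, 92.5 and 116 TPM at ZT24. Neither gene's groups overlapped, and they fell by 1.43 (adjusted p = 9.92e-06) and 1.47 (adjusted p = 1.64e-05). Rtp4, a chaperone of surface receptors, fell by 1.41 (adjusted p = 0.000273). The smaller falls were those of Trim25, which attaches ubiquitin to RIG-I, by 0.40, Tor3a by 0.41, Parp12 by 0.51, Herc6 by 0.54, Cmpk2 by 0.55, Slfn8 by 0.57 and Ifi35 by 0.58. Xaf1 fell by 1.0, Parp14 by 0.92, Rnf213 by 0.84 and Ifi44 by 0.72. Several of these calls depended on single libraries. The call of Herc6 was lost without any 1 of the 8 libraries, those of Cmpk2 and Slfn8 without any 1 of 6, those of Parp12, Parp14 and Ifi35 without any 1 of 5, that of Ifi44 without any 1 of 3 and that of Tor3a without either 1 of 2. The highest adjusted p among them was 0.29, for Slfn8 without ZT0 replicate 3. Bst2 and Xaf1 lost their calls without ZT0 replicate 3 alone, each at an adjusted p of 0.0599.

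Among the 10 tested members that were not called, Ifi27l2a was at 199, 120, 166 and 128 TPM at ZT0 and at 51.0, 84.2, 46.4 and 45.1 TPM at ZT24. Its groups did not overlap, and the log2 fold change of -1.44 ± 0.42 (SE) had an adjusted p of 0.153. Ifit2 had a log2 fold change of -0.94 (adjusted p = 0.257), Rsad2 (viperin) of -0.35 (adjusted p = 0.333) and Epsti1 of 0.03 (adjusted p = 0.956). Another 11 listed genes had rebuilt reads that were not whole at their annotated length and were fitted only as an alternative, where 7 were lower, among them Oas1a (log2 fold change -1.27, adjusted p = 0.00045). Ifit3 was at 205, 158, 229 and 261 TPM at ZT0 and at 78.9, 83.6, 79.3 and 80.6 TPM at ZT24 there, with no overlap and an adjusted p of 0.0597.

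Of the 19 tested GTPases and chemokines that interferon gamma induces, 2 were lower, beside 0.377% of all genes tested, and 0 higher. Their median was -0.75. In all, 18 of the 19 were below 0, beside 60.1% of all genes tested. In 11 the groups did not overlap, beside 7.6% of all genes tested in either direction. This list too was chosen with earlier results of these data known, so its counts are a description. Irgm2, an immunity-related GTPase, was at 127, 71.9, 95.8 and 59.7 TPM at ZT0 and at 38.4, 29.3, 33.8 and 44.0 TPM at ZT24 (log2 fold change -1.22 ± 0.31, SE, adjusted p = 0.0393), and its call was lost without any 1 of 7 of the 8 libraries, with an adjusted p of up to 0.282 without ZT0 replicate 1. Gbp9, a guanylate-binding protein, fell by 0.69 (adjusted p = 0.0141), and its call was lost without any 1 of 3 libraries (adjusted p of up to 0.117, without ZT0 replicate 3). Irgm1 had a log2 fold change of -0.98 (adjusted p = 0.0795), Gbp2 of -0.49 (adjusted p = 0.672) and the chemokine Cxcl9 of -0.14 (adjusted p = 0.905). Antigen presentation genes gave 0 calls of 14, beside 0.648% of all genes tested, and had a median of -0.15. B2m, the light chain of MHC class I, was at 2436 to 3643 TPM at ZT0 and 2252 to 2756 TPM at ZT24, which overlapped (log2 fold change -0.30, adjusted p = 0.659), Psmb8 of the immunoproteasome had -0.40 (adjusted p = 0.669), and the class I heavy chain H2-K1, at its unverified length, had 0.04 (adjusted p = 0.956).

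The 13 lower genes outside the lists included further genes named for interferon. Ifi206, Ifi207, Ifi208 and Ifi213, of the family that senses DNA, lie together on chromosome 1 between 173468485 and 173741747 and fell by 0.93, 0.73, 0.53 and 0.74. Their sequences are similar, so reads may be split among them. Ms4a4c, a membrane protein gene, was at 7.46, 5.56, 9.00 and 3.12 TPM at ZT0 and at 1.85, 2.05, 1.22 and 2.04 TPM at ZT24, and fell by 1.32 (adjusted p = 0.000644). Others, named after their values were seen, were Ms4a6c, Slfn2, Trim34a and H2-T24, which fell by 0.61, 0.61, 0.69 and 0.71. The abundant phospholipid enzyme gene Chpt1 fell by 0.24 and the collagen gene Col5a2, whose groups overlapped, by 0.69. The calls of Ms4a6c (without any 1 of 7 libraries), Chpt1 and Col5a2 (6 each), Slfn2 (5), Ifi208 (4), Ifi207 (3) and Ifi213 (1, ZT0 replicate 3) were lost when a library was left out, with adjusted p of up to 0.521 for Col5a2 without ZT0 replicate 1.

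**Figure D2:**
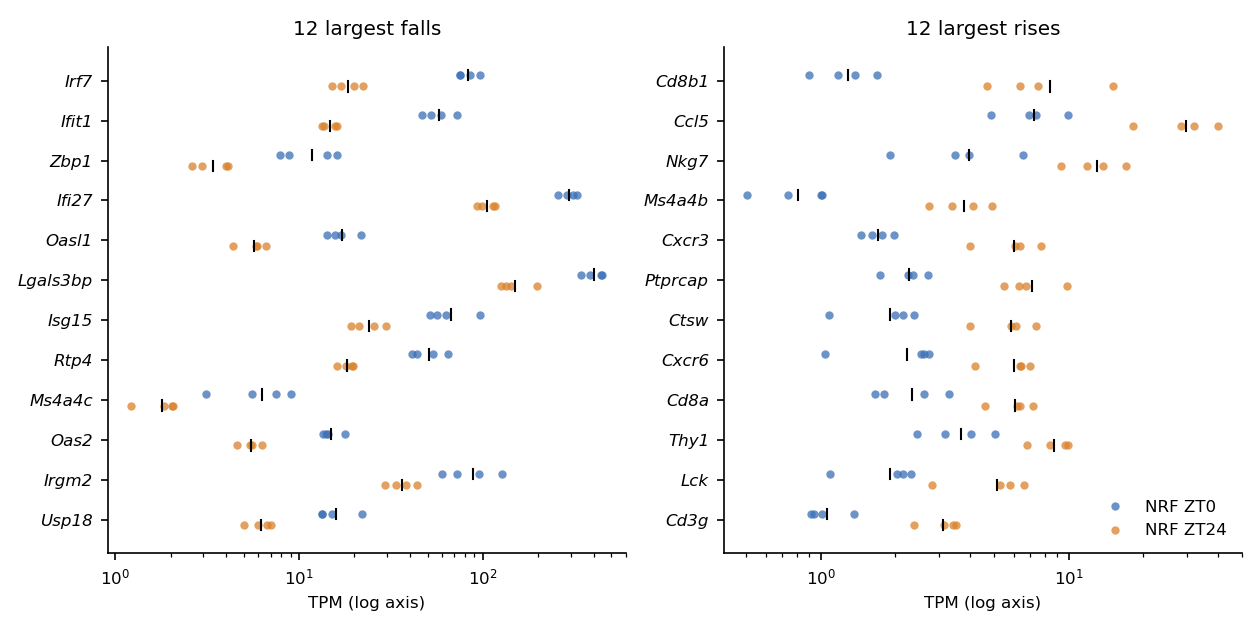
TPM (log axis) of each mouse for the 12 genes with the largest falls and the 12 with the largest rises among called genes with a mean of at least 2 TPM, at NRF ZT0 (blue) and NRF ZT24 (orange), with black bars at the means of 4 mice. The ZT0 and ZT24 points do not overlap in any of the 24 genes.

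Of the 33 genes that were higher at ZT24, 7 were on the list of T and NK cell markers. That list had 10 tested members of 16 listed, and 7 were higher, 0 lower and 3 not called, with a median log2 fold change of 1.10. In 9 of the 10 the groups did not overlap, beside 7.6% of all genes tested in either direction. Over all genes tested, 0.271% were called higher. This list was also chosen with earlier results of these data known, so its counts are a description. Cd8b1, a chain of the CD8 co-receptor of cytotoxic T cells, was at 1.38, 1.69, 0.893 and 1.17 TPM at ZT0 and at 7.53, 6.37, 4.68 and 15.1 TPM at ZT24. It rose 6.58-fold in mean TPM, with no overlap, and its log2 fold change was 1.94 ± 0.25 (SE, adjusted p = 7.69e-06). The levels were low, and Cd8b1 rested on 10 to 18 reads per library at ZT0 and 52 to 170 at ZT24.

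Ccl5, a chemokine that memory T cells and NK cells store, was at 9.93, 7.38, 6.90 and 4.86 TPM at ZT0 and at 28.5, 32.0, 18.1 and 40.2 TPM at ZT24 (log2 fold change 1.87 ± 0.27, SE, adjusted p = 1.87e-05). Nkg7, a protein of cytotoxic granules, was at 6.55, 3.95, 3.48 and 1.90 TPM at ZT0 and at 13.8, 11.9, 9.34 and 17.1 TPM at ZT24, and rose by 1.55 (adjusted p = 0.000612). Neither gene's groups overlapped. Cd3d and Cd3g, chains of the T cell receptor complex, rose by 1.11 (adjusted p = 1.64e-05) and 0.99 (adjusted p = 0.00135), Lck, the kinase it signals through, by 1.06, and Cd8a by 1.10.

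The remaining markers were not called. Cd4, the co-receptor of helper T cells that macrophages can also carry, was at 2.06, 2.07, 2.17 and 1.29 TPM at ZT0 and at 2.99, 3.66, 2.42 and 2.03 TPM at ZT24, with an overlap and an adjusted p of 0.574. The granzymes Gzmb and Gzma had log2 fold changes of 1.35 (adjusted p = 0.0557) and 1.06 (adjusted p = 0.183), and both were highest in the ZT24 library with no number, at 15.6 and 12.9 TPM. The NK cell receptor genes Klrb1c and Ncr1 were at 0 to 0.688 TPM in all 8 libraries and were not tested.

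Genes outside the list that rose most were Ms4a4b (by 1.39), the chemokine receptors Cxcr3 (by 1.36) and Cxcr6 (by 1.14), the CD45-associated Ptprcap (by 1.29), the protease Ctsw of cytotoxic cells (by 1.24) and Thy1 (by 1.08). Cxcr3 was at 1.97, 1.77, 1.61 and 1.46 TPM at ZT0 and at 7.72, 6.07, 4.01 and 6.34 TPM at ZT24, with no overlap (adjusted p = 1.64e-05). Further T cell genes, named after their values were seen, were Cd2, Cd5 and Lat, which rose by 1.05, 0.76 and 1.07. The call of Cxcr6 was lost without any 1 of 3 libraries (adjusted p of up to 0.128) and that of Cd5 without any 1 of 5 (up to 0.0897). Several called genes lie side by side, such as Cd8a with Cd8b1 and Gimap3 with Gimap7 on chromosome 6 and Cd3g with Cd3d on chromosome 9, and 22 of the 79 lay within 500 kb of another called gene. On chromosome 19 the neighbours went opposite ways, with Ms4a4b higher and Ms4a4c and Ms4a6c lower.

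Markers of other immune cells were not called, where 0.648% of all genes tested were. Macrophage and dendritic cell markers had 0 calls of 15 and a median of 0.06, B and plasma cell markers 0 of 4 and a median of 0.36, and neutrophil markers 0 of 2. Of 14 listed B and plasma cell markers only 4 were tested, and all 4 were above 0, by 0.14 to 0.97, while 60.1% of all genes tested were below 0. Their mean level was 1.82 at NRF ZT0, the lowest of the 14 groups, and 2.28 at NRF ZT24, and the mice of these groups overlapped. Haemoglobin transcripts were also higher at ZT24. Hba-a1, at its unverified length, was at 837, 607, 661 and 582 TPM at ZT0 and at 3492, 1231, 1095 and 3029 TPM at ZT24. The groups did not overlap, and the adjusted p was 0.0254 where such genes were fitted. The summed level of 7 blood markers was 1900 to 2872 TPM at ZT0 and 3309 to 10599 TPM at ZT24. Alas2, which starts haem synthesis in red cell precursors, had a log2 fold change of 1.21 (adjusted p = 0.167) and Slc4a1, which red cells share with collecting duct cells, of 0.12 (adjusted p = 0.843). Their part in the result was not tested. Without ZT24 replicate 1 and the library with no number, which had the most haemoglobin, 29 genes were called, 7 higher and 22 lower, among them 3 of the T and NK cell list, in an alternative chosen after seeing the data that left 2 mice at ZT24.

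To ask whether the clock stood at the same point, the clock genes were set against their own daily range. Of the 19 clock genes tested, 0 were called, beside 0.648% of all genes tested, a share at which 0 calls among 19 say little. Their median log2 fold change was -0.15, and 17 of 19 were below 0, beside 60.1% of all genes tested. A 24-h cosine fitted to the 20 NRF libraries of ZT4 to ZT20, which hold neither group, called 17 of the 19 rhythmic (40.3% of all genes tested), with a median difference from peak to trough of 2.90 on the log2 scale. The median absolute difference between the groups was 0.16, and the median share of the gene's own range was 7.69%. Arntl was at 24.4, 25.5, 22.6 and 26.2 TPM at ZT0 and at 24.2, 24.6, 23 and 25.4 TPM at ZT24, a log2 fold change of -0.02 ± 0.18 (SE, adjusted p = 0.975) against a range of 4.25. The groups overlapped, as did those of Clock (log2 fold change -0.08, adjusted p = 0.836).

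The largest difference was that of Nr1d1 (REV-ERB alpha), a repressor of Arntl, at 20.9, 13.4, 28.1 and 20.5 TPM at ZT0 and 39.8, 24.9, 21.2 and 26.1 TPM at ZT24. The groups overlapped (log2 fold change 0.42 ± 0.25, SE, adjusted p = 0.654). The rebuilt reads of Nr1d1 and Dbp were not whole at their annotated lengths, and both were kept in the fit by exception. The period genes Per1, Per2 and Per3 had log2 fold changes of -0.28, -0.22 and -0.36, Cry1 of -0.19, Nr1d2 of -0.25, and the output factors Dbp and Tef of -0.35 and -0.07, none called. Ciart, a repressor of CLOCK and BMAL1, was the single clock gene whose groups did not overlap, at 2.17 to 2.95 TPM at ZT0 and 1.65 to 2.07 TPM at ZT24 (log2 fold change -0.26, adjusted p = 0.706). Over all genes tested, 7.6% did not overlap in either direction, so 1 of 19 clock genes is near that share.

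When each library was placed at the time where the 17 rhythmic clock genes best matched those cosines, the ZT0 mice read -0.9, -1.3, -0.6 and -0.7 h and the ZT24 mice read -0.3, -0.7, -0.4 and -0.3 h relative to lights on. The ZT24 mice read 0.45 h later on average, and the groups overlapped. The same reading missed the labelled time of the 20 libraries behind the cosines by 0.25 h in the median and by 1.4 h at most. Temperature-sensitive genes were not called either: Cirbp, induced by cold, had a log2 fold change of 0.29 (adjusted p = 0.602) and Hspa8, a heat shock chaperone, of -0.37 (adjusted p = 0.284). In both the groups did not overlap, which held for 7.6% of all genes tested in either direction. Cirbp was at 22.4 to 27.1 TPM at ZT0 and 27.5 to 37.3 TPM at ZT24, and Hspa8 at 2063 to 2749 TPM and 1775 to 2002 TPM.

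**Figure D3:**
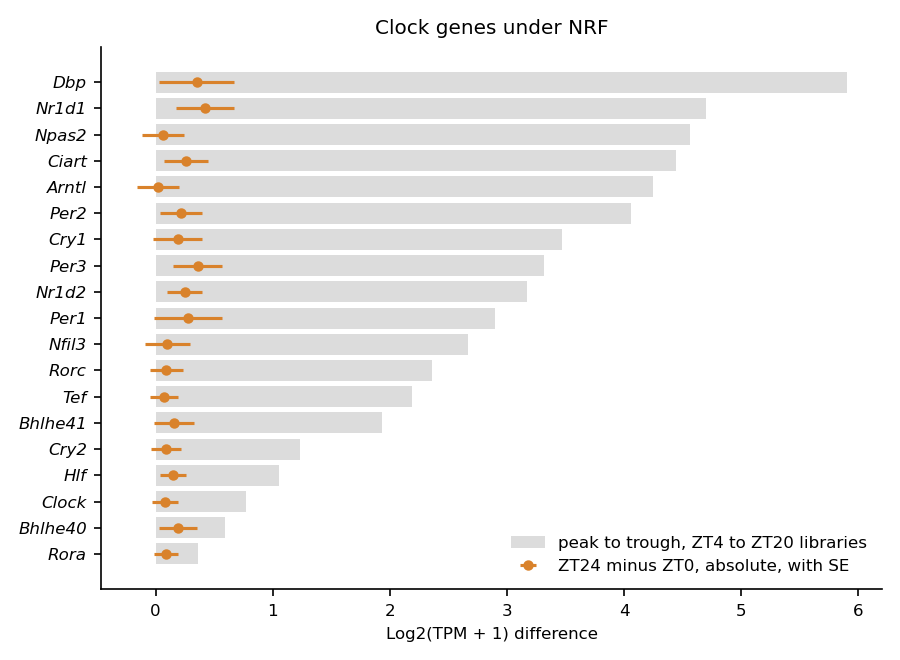
Absolute log2(TPM + 1) difference between NRF ZT24 and NRF ZT0 (orange points with SE, 4 mice each) of the 19 clock genes, over the fitted difference from peak to trough in the 20 other NRF libraries (grey bars). The differences between the groups are at most 0.42, while the median range is 2.90.

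The groups were then set beside the other NRF collections. For the 46 lower genes, NRF ZT0 was the highest of the 7 NRF groups in 20 (16.5% of all genes tested) and second in the other 26, and NRF ZT8 was the highest in 25. These genes were chosen with ZT0 above ZT24, which favours a high rank of ZT0, so the ranks are a description and nothing is read from them against the share of all genes. The ZT0 mean was farther than the ZT24 mean from the level that the cosine of the other libraries gives for ZT0 in 44 of 46, beside 57% of all genes tested. The ZT0 mean lay a median of 0.87 above that level and the ZT24 mean 0.01 below it on the log2 scale. These distances also use the ZT0 and ZT24 values by which the genes were chosen, and the genes are not independent. The 44 of 46 is therefore a description, and nothing is read from it against the share of all genes. Irf7 averaged 83 TPM at ZT0, 44.6 TPM at ZT4 and 90 TPM at ZT8. Its means for ZT12, ZT16, ZT20 and ZT24 were 22, 37.4, 12.4 and 18.5 TPM, so that the level was high in 2 collections separated by a lower one. Of the 46 genes, 35 were called rhythmic in the 20 libraries, which include ZT8, beside 40.3% of all genes tested.

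The mean level of the 41 tested interferon response genes, in log2(TPM + 1), was 5.0, 4.77, 5.13 and 4.76 in the ZT0 mice and 4.03, 4.08, 3.91 and 4.11 in the ZT24 mice. At NRF ZT8 it was 4.99, 4.25, 5.30 and 5.15, so 1 mouse of that group stood at the level of the other collections. The collections on either side of lights on were lower, at 3.73 to 3.90 at NRF ZT20 and 3.98 to 4.36 at NRF ZT4. All 4 ZT0 mice were above every NRF mouse outside ZT8, the highest of which was at 4.42 at ZT16.

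For the higher genes, NRF ZT0 was the lowest of the 7 NRF groups in 27 of 33 (6.01% of all genes tested), a rank that their choice favours in the same way. NRF ZT24 lay above the cosine level by a median of 0.46 while ZT0 lay 0.41 below it. In 17 of 33 ZT0 was the farther group and in 16 ZT24 was, while ZT0 was farther in 57% of all genes tested. These distances also use the values by which the genes were chosen, so they are a description. The mean level of the 10 T and NK cell markers was 1.78, 1.65, 1.61 and 1.14 in the ZT0 mice and 2.74, 2.76, 2.34 and 3.32 in the ZT24 mice. It was 1.28 to 1.54 at DRF ZT12, the single group with a lower mean, and 2.71 to 3.11 at DRF ZT24, the single group with a higher one. Of the 33 genes, 3 were rhythmic in the 20 libraries, beside 40.3% of all genes tested.

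**Figure D4:**
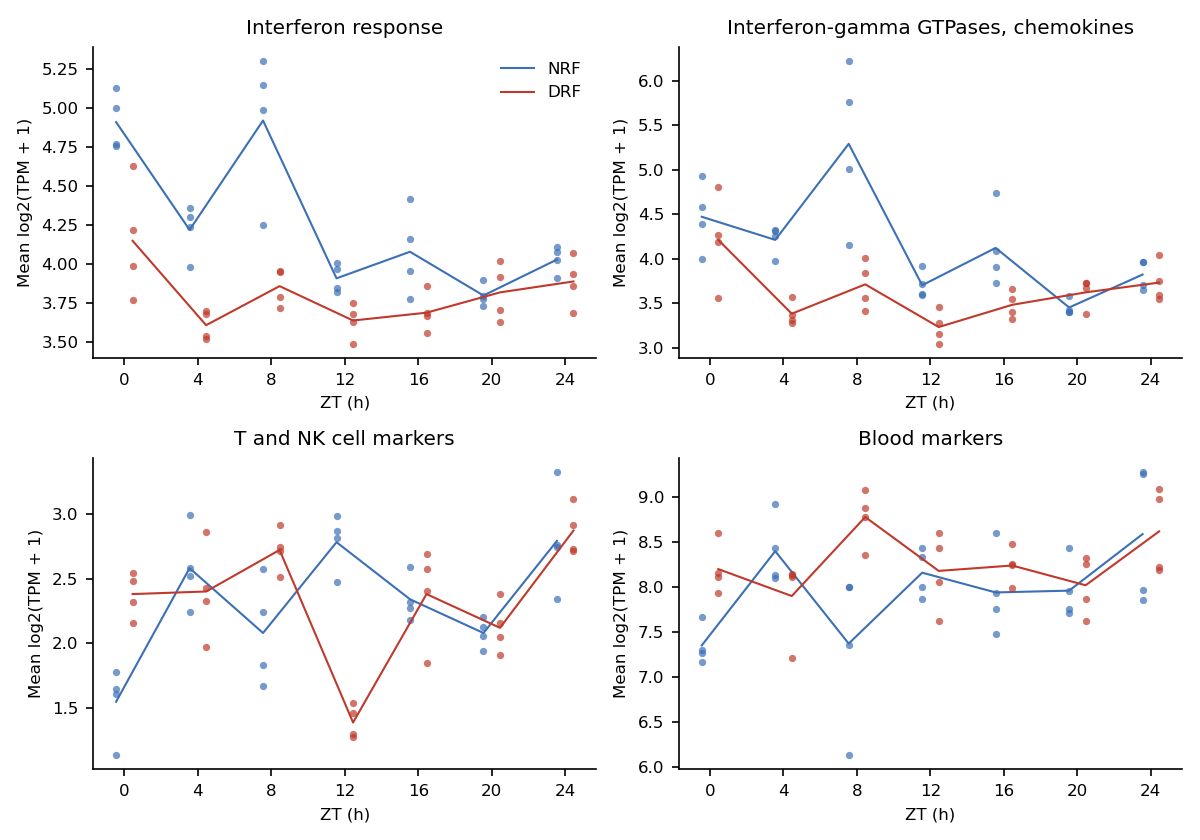
Mean log2(TPM + 1) of the tested members of 4 gene lists in each mouse (points) and group (lines join means of 4 mice) by ZT, under NRF (blue) and DRF (red), the blood list with haemoglobins at unverified lengths. NRF ZT0 and NRF ZT8 stand highest in interferon response, and NRF ZT0 and DRF ZT12 lowest in T and NK cell markers.

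The DRF mice gave the same interval in 8 other animals. Between DRF ZT24 and DRF ZT0, 0 genes were called (0% of the genes tested): the smallest adjusted p in limma was 0.295, and 508 genes had an unadjusted p under 0.05. Of the 46 genes lower at NRF ZT24, 44 were also below DRF ZT0 at DRF ZT24, beside 47.5% of all genes tested, with a median log2 fold change of -0.28 against -0.75 under NRF. Of the 33 higher genes, 33 were above, beside 52.5% of all genes tested, with a median of 0.44 against 0.85. The genes of each set move together within a library and are not independent. The difference of the change between regimens was called for 0 genes (0%): the smallest adjusted p in limma was 0.927 with 416 genes under an unadjusted 0.05, so no gene was shown to change differently under NRF and DRF.

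Under DRF the spread at ZT0 was wide. The mean level of the interferon response genes was 4.63, 3.77, 3.99 and 4.22 in the DRF ZT0 mice and 3.94, 3.86, 4.07 and 3.69 in the DRF ZT24 mice, which overlapped. Irf7 was at 34.1 ± 21.7 TPM at DRF ZT0 and 19.4 ± 5.78 TPM at DRF ZT24 (SD, n = 4), against 83 ± 10 and 18.5 ± 3.23 TPM under NRF. Ccl5 was at 19.7 ± 4.25 and 37.1 ± 4.11 TPM under DRF, against 7.27 ± 2.08 and 29.7 ± 9.17 TPM under NRF (SD, n = 4).

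**Figure D5:**
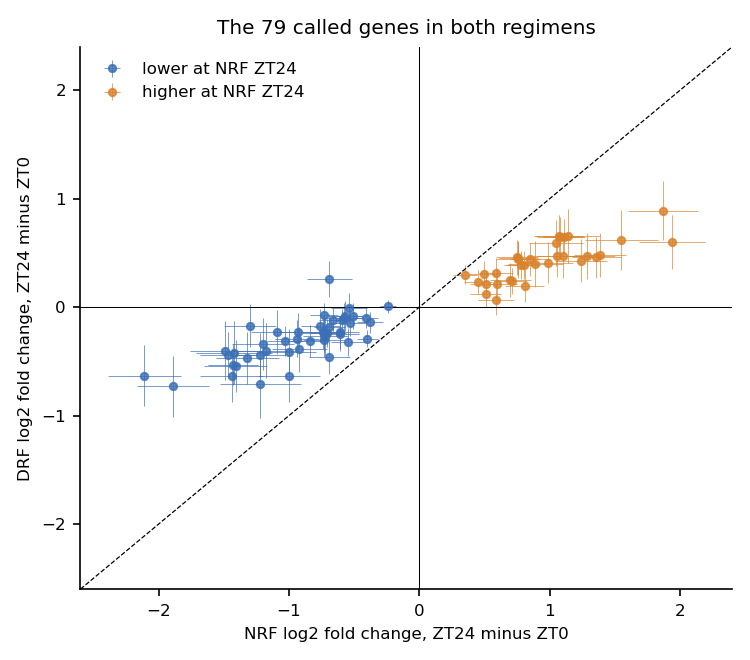
Log2 fold change, ZT24 minus ZT0, of the 79 called genes under DRF (vertical) against NRF (horizontal), with SE bars, and a dashed line where both are equal. Of the genes lower at NRF ZT24 (blue), 44 of 46 are below 0 under DRF, and all 33 higher genes (orange) are above 0.

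The other lists gave 0 calls each, where 0.648% of all genes tested were called. Of 20 chaperones of the endoplasmic reticulum, 17 were below 0 with a median log2 fold change of -0.22, and in 7 of them the groups did not overlap. Of 14 heat shock and cold-inducible genes, 12 were below 0 with a median of -0.18, and in 6 the groups did not overlap, both beside 7.6% of all genes tested. Medians of the other lists were -0.04 for 14 glucocorticoid targets, 0.03 for 18 immediate early genes, 0.06 for 19 genes of fasting and fatty acid oxidation, -0.01 for 22 genes of cholesterol synthesis, 0.09 for 21 cell cycle genes, -0.02 for 17 kidney injury genes and 0.10 for 23 cytosolic ribosomal proteins. Markers of the nephron segments also gave 0 calls, with medians of -0.07 for the proximal tubule, -0.10 for the thick ascending limb, 0.01 for the distal convoluted tubule and -0.03 for the collecting duct. The median was -0.11 for 10 inner medulla and thin limb markers and -0.05 for 13 podocyte and endothelial markers. It was 0.18 for 10 fibroblast and smooth muscle markers and -0.52 for 10 adipose markers, 8 of them below 0. Marker lists of adrenal, liver and pancreas, ovary and uterus, and skeletal muscle had 2 to 6 tested members and medians of -0.10 to 0.16.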

How the data were processed

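PolyA RNA of whole kidneys was read as paired-end 100-base reads on a BGISEQ-500. The submitters' processing notes name HISAT2, Bowtie2, RSEM, mm10 and GRCm38.p6, with no role given. The values the authors deposited under the name TPM are a score: they behave as log2(CPM + 1) divided by gene length and scaled to nearly one sum (999145 to 999753) in each library. Reads were rebuilt from them with a length for each gene. For 89.68% of the 17027 genes the reads came out whole, within 0.05 of a read, in 98.95% of the values examined. These were 14251 genes at their GENCODE M21 exon length and 1018 at a searched length. TPM was computed from these reads. Genes whose reads did not come out whole were left out of the fit, except Nr1d1 and Dbp, kept by hand as clock genes, and 72 genes too high for the check. For the 1018 genes, whose annotated length was missing or gave too few whole reads, the length was chosen so that reads came out whole. Their whole reads are therefore no check on the length. Called genes among them included Ms4a4b, Ptprcap, Ctsw and Cd5.

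The test was limma (3.58.1, R 4.3.3) with a mean-variance trend on log2(TPM + 1) of the 12191 genes with a mean of at least 1 TPM over 56 libraries, fitted as 14 group means, with Benjamini-Hochberg adjustment over all genes and a threshold of 0.05. The design had assumed linear TPM. Cosines of 24 h were fitted to the 20 NRF libraries of ZT4 to ZT20, and the clock time of a library was read in steps of 0.1 h. Named genes were the 12 largest rises and 12 largest falls among called genes with a mean of at least 2 TPM, every called list member, and a set of clock, interferon and stress genes named whether called or not. Members and lists were chosen with earlier results of these data known. The alternatives were other scalings, filters, pseudocounts and library sets, limma-voom, a replicate block and each library left out. Scripts were tested on simulated data. One ZT24 library could be matched to its group and not to a replicate number. A few genes that were tested and counted are not reported here by name.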

Additional observations from a re-analysis of the deposited data

Results flagged for a closer look

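In 140 groups of 4 mice, 5 single values stood farther from the other 3 than Dixon's 95% limit, and chance alone gives about 1 in 20. They were Cxcr6 at 1.04 TPM in NRF ZT0 replicate 4 (gap 0.884 of the range), Per1 at 14.3 TPM in the same library (0.893), Gbp9 at 14.7 TPM in NRF ZT24 replicate 3 (0.908), Ifi27l2a at 84.2 TPM in NRF ZT24 replicate 2 (0.849) and H2-K1 at 814 TPM in the NRF ZT24 library with no number (0.918).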

How the results depend on the processing

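Against 79 called genes (33 higher, 46 lower), a minimum mean of 5 TPM gave 39 (9 higher, 30 lower) and 2 of the T and NK cell list, since fewer low genes were tested. Fitting the 8 libraries alone gave 61 genes (20 higher, 41 lower), of which only 47 were among the 79. The 28 NRF libraries gave 54 (25 higher, 29 lower), all of them among the 79. Leaving out 1 mouse at a time gave 47 to 74 called genes, 24 to 49 lower, 23 to 36 higher and 19 to 33 members of the interferon lists against 33. Without NRF ZT0 replicate 3 the total was 47, the lower genes 24 and the interferon members 19, each the lowest. In alternatives chosen after seeing the data, leaving out the libraries with adipose transcripts gave 25 lower genes and 20 interferon list members, and leaving out those with most haemoglobin gave 29 genes (7 higher, 22 lower), 18 interferon list members and 3 of the T and NK cell list. The causes were not tested.

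With a replicate block, 58 genes were called, 21 of them higher. Same-numbered samples did not deviate together (r of -0.152, -0.342 and 0.118 under NRF, -0.366 to 0.098 under DRF). The labels do not say whether they shared a cage, day or batch, and these few values cannot decide it. The DRF comparison, the difference between regimens and the clock list kept 0 calls in every alternative run. Of 47 called named genes, 22 stayed past the threshold in every alternative and none changed sign. The log2 fold change of Arntl turned to 0.01 with median-of-ratios scaling, 0.02 with limma-voom, 0.01 without ZT0 replicate 4 and 0.01 without ZT24 replicate 3 (-0.06 to 0.01 over single libraries left out), and that of Tef to 0.03 without ZT0 replicate 3 (-0.16 to 0.03). The clock time difference was 0.40 to 0.67 h.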
